A study of Mus musculus with 6 samples.

Results

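Daily 5-min restraint after chronic restraint stress was compared with chronic restraint stress alone in the prelimbic cortex (PL) of mice, on 4 of the 6 bead arrays of the study. CRST+RS5 mice underwent daily 2-h restraint on 14 days and then daily 5-min restraint on a further 14 days, CRST mice underwent only the 14 days of 2-h restraint, and CON mice were naive. All were male C57BL/6 mice aged 3 months, and tissue was taken on post-stress day 22. Each array (n = 2 per group) carried RNA pooled from 6 to 7 animals, so an array is a pool and the spread between the arrays of a group is a spread between pools. The compared arrays were chosen by their labels, CRST+RS5 replicates 1 and 2 against CRST replicates 1 and 2, and the CON arrays are given only as context, since any comparison with them shares arrays with this one.

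Restraint is a psychogenic stressor that activates the hypothalamic-pituitary-adrenal axis and raises circulating corticosterone, which acts in the brain through the glucocorticoid and mineralocorticoid receptors. The PL, a part of the medial prefrontal cortex, has a feedback role over this axis, and its output is carried by projection neurons. Its surface is covered by the pia and arachnoid, whose fibroblasts secrete matrix proteins, retinoic acid and growth factors and carry solute transporters, and its penetrating vessels bring smooth muscle, endothelium and border macrophages into the tissue. The question asked of these arrays is which transcripts differed once the brief restraint had been added, and which of the differences appeared on both arrays of each group.

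Of 25697 probes, 12881 were detected on both arrays of either group (detection p under 0.05) and were kept. A change of at least 1.2-fold between group means of log2 signals was found for 375 probes higher in CRST+RS5 than in CRST (2.91%) and for 229 probes lower (1.78%). The 2 arrays of a group themselves differed by that much at 869 probes for CRST+RS5 and at 1373 probes for CRST. Each probe was therefore also described by the 4 differences between a CRST+RS5 array and a CRST array. The smallest of them, called the gap here, is above 0 in size only where the groups did not overlap. Among the higher probes, 345 did not overlap (2.68% of all kept) and 125 had all 4 differences past 1.2-fold (0.97%). Among the lower probes, 173 did not overlap (1.34%) and 23 had all 4 differences past 1.2-fold (0.179%). Of the probes past 1.2-fold, 24 higher (0.186%) and 17 lower ones (0.132%) were not detected on any array of the other group. These passed the filter only through the group where they were high. Their differences and gaps rest on undetected signals and enter the counts as measured.

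The size of the changes was unequal in the opposite directions. On the quantile scale, 18 probes were higher by 2-fold or more and 0 were lower by as much. The median gap of the probes past 1.2-fold was 0.21 (log2) for the higher ones and -0.15 for the lower ones. No probe passed an adjusted p of 0.05 in limma over the 6 arrays (0 of 12881, smallest adjusted p = 0.137), and 0 did with a trend in the variance, while 1106 had an unadjusted p under 0.05. Per the methods, all 3 groups were prepared in 2 independent sets, but which arrays belong to which set is not given in the sources used here. If arrays of the same number form a set and the number is taken as a block, limma called 35 probes at an adjusted p of 0.05, all 35 of them higher, among them Acta2 and Dcn (adjusted p = 0.00685 for both), Ptgds (0.00962), Serping1 (0.0235), Bmp4 (0.0376), Ogn (0.0386) and Mrc1 (0.0436). The adjusted p-values given for genes below come from limma with no such block. An exact permutation test of 2 arrays against 2 cannot give a two-sided p below 0.333, so single genes are described below by their arrays. Scaling the arrays to a common median in place of quantiles moved the median difference of all probes from -0.01 to -0.11 and changed the split to 208 higher and 1216 lower. Probes with all 4 differences past 1.2-fold then numbered 73 higher and 140 lower. Differences of the size of that shift depend on the scaling, and all differences below are on the quantile scale. With median scaling or neqc, the medians of all 33 gene lists kept their sign except that of the glucocorticoid targets under median scaling.

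**Figure D1:**
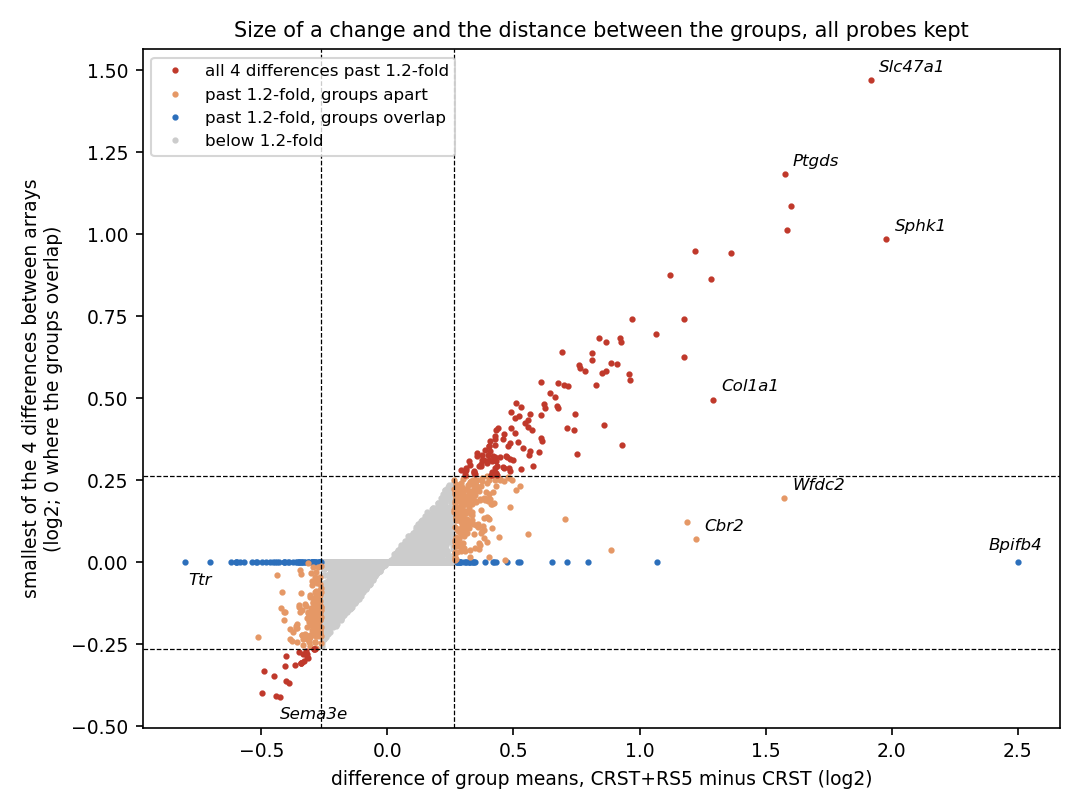
Each point is 1 of the 12881 probes kept. The x axis gives the difference of group means, CRST+RS5 minus CRST (log2), the y axis the smallest of the 4 differences between arrays (log2, set to 0 where groups overlap), dashed lines mark 1.2-fold, and red, orange, blue and gray mark all 4 differences past 1.2-fold, groups apart, groups overlapping and changes below 1.2-fold. Increases reach a gap of 1.47 and decreases one of -0.41, while Bpifb4, with the largest difference, lies at 0.

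Only 899 probes carry a gene name, because the sources used here name no others. The names come from the lists that the study selected on these arrays, mostly for this same comparison. Of the 668 named probes kept, 555 were past 1.2-fold, against 4.69% of all probes kept, which follows from that selection. Counts of named members below are therefore a description and no evidence that a group of genes changed more than others. In bulk tissue, fewer cells of a type and less RNA per cell cannot be told apart.

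The DNA letters around the start of genes in the interferon and antigen presentation lists were searched for a response element known for interferon-induced or for class II genes. The lists were made by known function, but with earlier results of these data known. Only named and kept members were searched, so the shares with a match describe these members and are no result of this comparison. Windows from 250 bases before to 50 bases after the start site (RefSeq, GRCm38.p6) were searched on both strands for the core of the interferon-stimulated response element, which is GAAA, any 2 bases and GAAA again, and for the Y box of class II major histocompatibility genes, CTGATTGG. Of the 8 interferon-induced probes kept, 6 had a window and 4 of these held the interferon element, which 3.44% of all 32851 windows hold. Of the 10 probes for antigen presentation and border macrophages, 8 had a window and 1, that of H2-Eb1, held the Y box, which 4.10% of all windows hold. Cd74 and H2-Ab1 had no window, so H2-Eb1 was the only class II gene searched. The other windows were those of genes listed for macrophages, such as Mrc1 and Dab2. The 250 bases before the start site are printed for 4 genes that were higher on both CRST+RS5 arrays, 5′ to 3′ on the gene's strand, with the matched letters in capitals. The windows are chr19:34583279-34583528 (plus strand) for Ifit3, chr11:58214727-58214976 (plus) for Iigp2, chr7:140955962-140956211 (minus) for Ifitm2 and chr17:34305617-34305866 (plus) for H2-Eb1.
Ifit3: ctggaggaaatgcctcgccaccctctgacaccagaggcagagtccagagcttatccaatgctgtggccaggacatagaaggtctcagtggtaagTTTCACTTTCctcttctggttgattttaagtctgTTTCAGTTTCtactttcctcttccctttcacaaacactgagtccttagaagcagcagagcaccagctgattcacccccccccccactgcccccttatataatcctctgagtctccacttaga
Iigp2: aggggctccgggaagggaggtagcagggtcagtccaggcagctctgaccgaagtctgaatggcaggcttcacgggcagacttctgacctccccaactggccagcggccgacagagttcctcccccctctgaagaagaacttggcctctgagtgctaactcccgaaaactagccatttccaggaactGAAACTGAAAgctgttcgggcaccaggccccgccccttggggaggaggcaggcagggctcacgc
Ifitm2: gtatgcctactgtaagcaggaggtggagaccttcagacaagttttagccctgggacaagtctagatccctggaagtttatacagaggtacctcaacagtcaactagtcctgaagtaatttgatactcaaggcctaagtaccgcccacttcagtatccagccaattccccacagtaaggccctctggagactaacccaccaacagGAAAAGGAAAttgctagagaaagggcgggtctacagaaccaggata
H2-Eb1: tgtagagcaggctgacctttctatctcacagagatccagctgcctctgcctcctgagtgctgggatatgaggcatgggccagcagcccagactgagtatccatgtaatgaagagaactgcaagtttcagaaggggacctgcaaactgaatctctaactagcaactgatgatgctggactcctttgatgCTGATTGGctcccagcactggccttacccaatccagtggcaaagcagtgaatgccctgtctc
The matches begin 156 and 122 bases before the start in Ifit3, in reverse orientation, 64 bases before it in Iigp2, 46 in Ifitm2 and 62 in H2-Eb1. The genes of each list were searched for the motif of that list only. Ifitm3 held 2 copies of the interferon element just after its start site, whereas the windows of Samd9l and Lgals3bp held none. A match is a description of the letters and not a bound site.

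Transporters and secreted proteins of meningeal fibroblasts were among the increases with the widest gaps. Of 32 listed marker genes, 28 genes with 29 probes were named and kept. All 29 probes were past 1.2-fold higher, 28 of them without overlap, and 23 had all 4 differences past 1.2-fold. The median difference was 0.83 on the log2 scale, against -0.01 over all probes kept. Markers outside the study's lists of changed probes have no name, so these counts and this contrast follow largely from that selection. They are a description and no evidence that the markers changed more than other genes. For each pair of arrays the median lay between 0.61 (CRST+RS5 replicate 1 minus CRST replicate 2) and 1.04 (CRST+RS5 replicate 2 minus CRST replicate 1). The summed signal of the 29 probes was 44984 and 46431 on the CRST+RS5 arrays, against 20161 and 26505 on the CRST arrays and 24651 and 33760 on the CON arrays.
Slc47a1, an exporter of organic cations, had the widest gap of all probes. Its log2 signal was 10.74 and 10.51 on the CRST+RS5 arrays, against 8.37 and 9.04 on the CRST arrays, a difference of 1.92 with a gap of 1.47 (standard error 0.41, adjusted p = 0.215 in limma). The CON arrays stood at 8.37 and 9.87, the second between the groups. Ptgds, which makes prostaglandin D2 and carries lipids in the cerebrospinal fluid, had 13.23 and 13.29 on the CRST+RS5 arrays, against 11.32 and 12.04 on the CRST arrays (difference 1.58, standard error 0.23, adjusted p = 0.137 in limma). It was the brightest of these markers, and its CON arrays stood at 12.04 and 12.56. The sulfate transporter Slc13a4 had 10.97 and 11.04 on the CRST+RS5 arrays, against 8.88 and 9.96 on the CRST arrays, and the organic anion transporter Slc22a6 had 9.57 and 9.39 in CRST+RS5, against 8.08 and 8.44 in CRST. Without CRST replicate 1, the difference of Slc13a4 became 1.05 in place of 1.58, whereas that of Slc22a6 stayed at 1.04 or more with any 1 array left out.
Further solute carriers differed in the same direction with smaller gaps. The dicarboxylate transporter Slc13a3 stood 0.78 higher in log2 signal, the GABA transporter Slc6a13 0.85 and the betaine and GABA transporter Slc6a12 0.67, with gaps of 0.58, 0.58 and 0.50. Slc22a8, the organic anion transporter of the choroid plexus and the blood-brain barrier, was higher by only 0.34, with a gap of 0.18, and by 0.18 without CRST+RS5 replicate 1. Gjb2, a gap junction protein of the arachnoid, was higher by 0.96, or by 0.58 without CRST replicate 1.
Igf2, a growth factor of the leptomeninges and choroid plexus, had 12.70 and 12.68 on the CRST+RS5 arrays, against 11.09 and 11.93 on the CRST arrays (difference 1.18, 0.76 without CRST replicate 1). Aebp1, a secreted collagen-binding protein, had 9.46 and 9.45 in CRST+RS5, against 8.09 and 8.57 in CRST, and Mgp, an inhibitor of calcification, had 10.83 and 11.14 in CRST+RS5, against 9.44 and 9.96 in CRST. In both, CRST replicate 1 was the lowest of the 4 compared arrays, as it was in 16 of the 20 named probes with the widest gaps. Igfbp2, a carrier of insulin-like growth factors, was measured by 2 probes, which were higher by 0.40 and 0.48, the smaller becoming 0.25 without CRST replicate 2. Spp1, Itgbl1, Crabp2 and Aldh1a2 were not detected on any CRST array, and passed the filter through the CRST+RS5 arrays, so their increases are bounds of at least 1.35-fold, 1.21-fold, 1.16-fold and 1.22-fold.

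**Figure D2:**
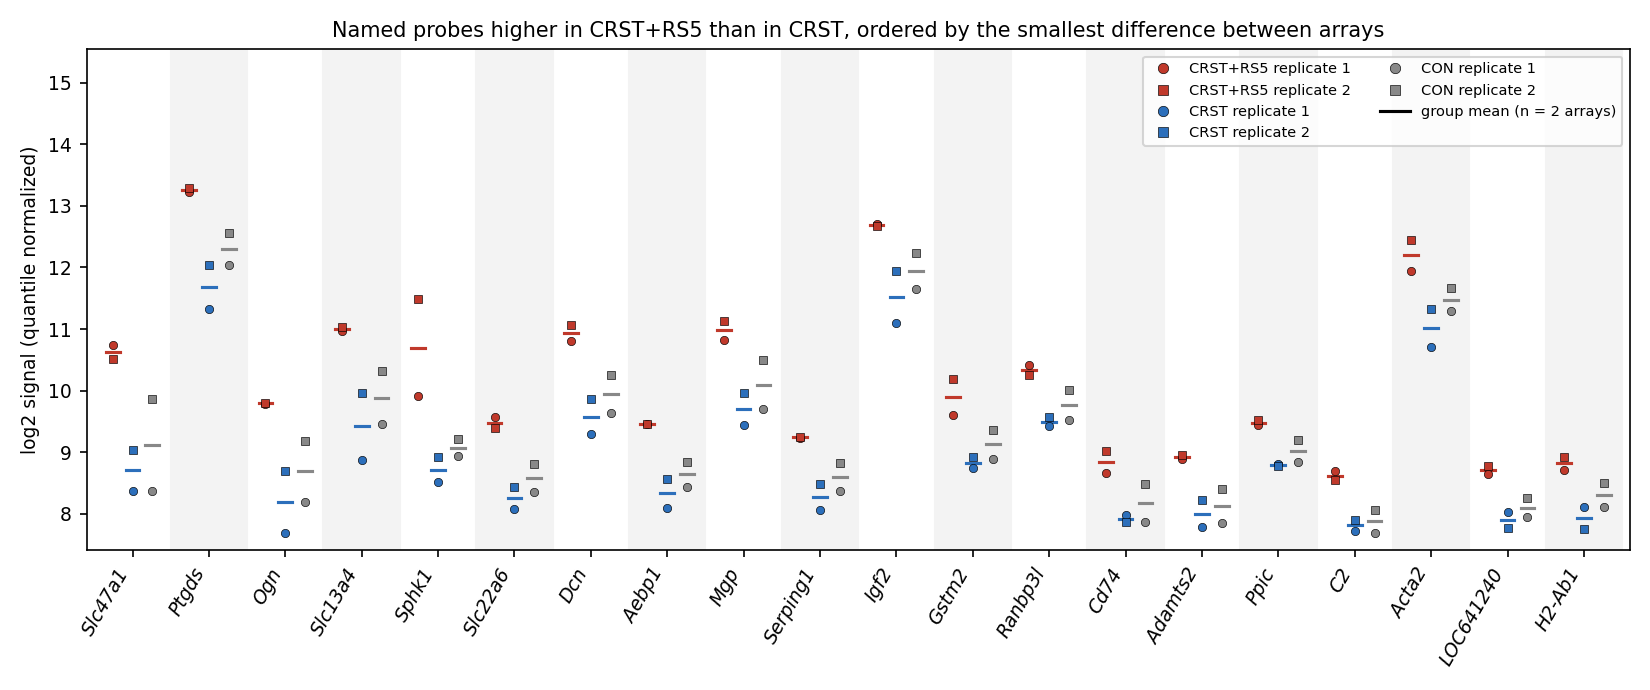
Quantile-normalized log2 signal (y axis) of the 20 named probes with the widest gap in the upward direction (x axis, from the widest). CRST+RS5 is red, CRST blue and CON gray, circles and squares are replicates 1 and 2, horizontal lines are group means (n = 2 arrays), and in every probe both CRST+RS5 arrays lie above both CRST arrays, by at least 0.61.

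Named matrix genes were mostly higher on both CRST+RS5 arrays, and among them the small leucine-rich proteoglycans had the largest median. These proteins bind collagen fibrils and set their thickness. All 6 named probes of 11 listed genes were past 1.2-fold, 5 of them with all 4 differences, and the median was 0.83. Ogn had 9.78 and 9.80 on the CRST+RS5 arrays, against 7.69 and 8.70 on the CRST arrays (difference 1.60, standard error 0.35, adjusted p = 0.219 in limma). Dcn, the gene of decorin, had 10.81 and 11.07 in CRST+RS5, against 9.29 and 9.87 in CRST, a difference of 1.36 (standard error 0.23, adjusted p = 0.137 in limma). Bgn (biglycan) was higher by 0.91, Fmod (fibromodulin) by 0.75 and Prelp by 0.37. Lum (lumican) overlapped, at 7.72 and 8.56 on the CRST+RS5 arrays, against 7.51 and 7.73 on the CRST arrays, and its mean difference of 0.52 became 0.10 without CRST+RS5 replicate 2.
All 8 named probes for collagens and their processing (22 listed genes) were past 1.2-fold without overlap, with a median of 0.39. Col1a1, a chain of type I collagen, had 8.39 and 9.62 on the CRST+RS5 arrays, against 7.53 and 7.90 on the CRST arrays. Its signal on CRST replicate 1 lay below the lowest detected signal of that array, 7.66. The difference of Col1a1 was 1.29 and became 0.68 without CRST+RS5 replicate 2. The procollagen N-proteinase Adamts2 stood at 8.89 and 8.96 in CRST+RS5, against 7.78 and 8.22 in CRST, a difference of 0.93 that lay between 0.71 and 1.15 with any 1 array left out. Loxl1, which crosslinks elastin, had closely placed arrays, at 8.92 and 8.94 on the CRST+RS5 arrays, against 8.41 and 8.43 on the CRST arrays. Pcolce, an enhancer of procollagen processing, was higher by 0.43 and the collagen receptor subunit Itga11 by 0.34.
Basement membrane genes differed less. All 6 probes kept (19 listed genes) were past 1.2-fold without overlap, 2 of them with all 4 differences, and the collagen chain Col18a1 and the laminin chain Lamb2 were each higher by 0.41. Among the matrix proteases, their inhibitors and associated glycoproteins, 7 of 8 probes kept were higher and 1, Adamts4, was lower with overlapping groups. The metalloproteinase inhibitor Timp3 had 10.89 and 10.94 on the CRST+RS5 arrays, against 10.34 and 10.52 on the CRST arrays. Smoc1, a calcium-binding matrix protein, was higher by 0.56 and tenascin C (Tnc) by 0.46. Mmp2, a gelatinase, was higher by 0.40 in the mean but with a gap of only 0.02, and by 0.11 without CRST+RS5 replicate 2.

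The meninges act on the cortex during development through retinoic acid and bone morphogenetic proteins (BMPs). Only 3 of 16 listed retinoid genes were kept, all 3 past 1.2-fold higher, with a median of 0.40 that became 0.29 with undetected genes at their bound. Crabp2, which carries retinoic acid in the cell, and Aldh1a2, which synthesizes it, were given above as bounds, that of Crabp2 below 1.2-fold. Of the 10 named probes for BMP and TGF-beta signaling (20 listed genes), 10 were past 1.2-fold higher and did not overlap, with a median of 0.36. The ligand Bmp4 led them, at 9.15 and 9.07 on the CRST+RS5 arrays, against 8.29 and 8.53 on the CRST arrays (difference 0.70, standard error 0.10, adjusted p = 0.137 in limma). The BMP target Id1 was higher by 0.52, Vasn, which binds TGF-beta, by 0.49 and Nbl1, an extracellular antagonist of BMPs, by 0.46, all with gaps past 1.2-fold. Bmp7 had a mean difference of 0.36 but a gap of 0.04, because CRST replicate 2 stood at 8.36, just below CRST+RS5 replicate 2 at 8.40, and without CRST replicate 1 it became 0.15. The receptor Tgfbr2 and the latent TGF-beta binding protein Ltbp4 were each higher by 0.31.
Of 6 transcription factor probes of the meninges that were kept (18 listed genes), 5 were past 1.2-fold higher. The homeobox gene Msx1 had 8.50 and 8.37 on the CRST+RS5 arrays, against 7.64 and 8.08 on the CRST arrays (difference 0.58, 0.36 without CRST replicate 1). Foxc1, which is required for meningeal development, was higher by 0.33 and Zic1 by 0.29. Tcfap2b and Zic4 were not detected on any CRST array, which bounds their increases at 1.24-fold and 1.10-fold or more, and without CRST replicate 1 the measured difference of Zic4 became 0.22 in place of 0.37.

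Named vessel wall genes were higher on both CRST+RS5 arrays, smooth muscle by a median of 0.36 and endothelium by 0.39 (0.38 with Sox17, undetected on the CRST arrays, at its bound of 1.11-fold). Vessel genes outside the study's lists of changed probes have no name, so the counts below follow largely from that selection. Acta2, the actin of vascular smooth muscle, had 11.95 and 12.44 on the CRST+RS5 arrays, against 10.71 and 11.32 on the CRST arrays and 11.29 and 11.66 on the CON arrays (difference 1.18, standard error 0.22, adjusted p = 0.157 in limma). The other 9 named probes for smooth muscle and pericytes (22 listed genes) were all past 1.2-fold without overlap. Among these contractile genes, smooth muscle myosin Myh11 was higher by 0.60, tropomyosin Tpm2 by 0.47 and smoothelin (Smtn) by 0.49, the last becoming 0.30 without CRST+RS5 replicate 2. All 9 endothelial probes kept (23 listed genes) were past 1.2-fold higher without overlap. Vwf, the von Willebrand factor gene, had 9.47 and 9.41 on the CRST+RS5 arrays, against 8.87 and 8.97 on the CRST arrays. Ptprb, the vascular endothelial tyrosine phosphatase, was higher by 0.51, Tmem204 by 0.43 and the angiopoietin Angpt2 by 0.41, whereas the glucose transporter Slc2a1 was higher by 0.30, or 0.19 without CRST+RS5 replicate 2. Flt1, a VEGF receptor, had 11.83 and 11.67 on the CRST+RS5 arrays, against 11.42 and 11.42 on the CRST arrays.

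Named genes of antigen presentation and of border macrophages were higher in CRST+RS5, and microglia were represented by 1 gene only. Border macrophages line the meninges and perivascular spaces and, unlike most microglia, carry mannose receptor. All 10 probes kept (16 listed genes) were past 1.2-fold higher without overlap, against 2.68% of all probes kept, 7 with all 4 differences, and the median was 0.60. Members outside the study's lists of changed probes have no name, so this count follows largely from that selection. Cd74, the invariant chain that guides class II molecules, had 8.66 and 9.02 on the CRST+RS5 arrays, against 7.98 and 7.86 on the CRST arrays. H2-Ab1, a class II beta chain, had 8.71 and 8.93 in CRST+RS5, against 8.11 and 7.76 in CRST (standard error 0.15, adjusted p = 0.143 in limma). H2-Eb1, whose Y box is printed above, had 8.21 and 8.37 in CRST+RS5, against 7.86 and 7.64 in CRST. In all 3 genes CRST replicate 2 was the lowest of the 6 arrays, which differs from the meningeal transporters. H2-Aa, the alpha chain, was below detection on all 6 arrays.
Mrc1, the mannose receptor, had 8.59 and 8.70 on the CRST+RS5 arrays, against 8.01 and 8.16 on the CRST arrays, and the endocytic adaptor Dab2 had 9.32 and 9.26 in CRST+RS5, against 8.55 and 8.74 in CRST. The lysozyme probes Lyz and Lyz2 were higher by 0.68 and 0.30, and as these genes are near-identical copies their probes may share signal. Without CRST replicate 2, Lyz2 became 0.19. F13a1, a coagulation factor subunit of macrophages, was higher by 0.49 (0.32 without CRST replicate 1). Cbr2 belongs to the list but also to the olfactory mucosa list, and its difference of 1.23 became 0.10 without CRST+RS5 replicate 2. Only 1 of 14 listed microglial genes was named, Siglech, with 9.99 and 9.62 on the CRST+RS5 arrays, against 9.47 and 9.53 on the CRST arrays, and its difference of 0.30 became 0.12 without CRST+RS5 replicate 1.
The 8 interferon-induced probes kept (23 listed genes) were all higher without overlap, by a median of 0.36, and CRST+RS5 replicate 2 was the highest array for all 8. Ifitm3, a membrane protein that restricts viral entry, had 11.07 and 11.28 on the CRST+RS5 arrays, against 10.51 and 10.62 on the CRST arrays. The related Ifitm2, whose promoter is printed above, had 9.03 and 9.12 in CRST+RS5, against 8.55 and 8.59 in CRST. These were the 2 genes of the list with all 4 differences past 1.2-fold. Ifit3, with 2 copies of the element, had 10.11 and 10.50 on the CRST+RS5 arrays, against 9.90 and 9.99 on the CRST arrays, and its difference of 0.36 became 0.16 without CRST+RS5 replicate 2. Iigp2 stood 0.32 higher, Samd9l 0.35, Lgals3bp 0.30 and the peptide transporter Tap2 0.28. Ifi27 was not detected on the CRST arrays and was at least 1.29-fold higher. Without CRST replicate 2, Lgals3bp became 0.20, and without CRST+RS5 replicate 2 the measured difference of Ifi27 became 0.32 in place of 0.53.
Among complement and related serpins, C2 of the classical pathway had 8.70 and 8.55 on the CRST+RS5 arrays, against 7.72 and 7.91 on the CRST arrays, and Serping1, the inhibitor of C1, had 9.24 and 9.25 in CRST+RS5, against 8.06 and 8.49 in CRST (difference 0.97, standard error 0.17, adjusted p = 0.143 in limma). Serpinf1, the secreted pigment epithelium-derived factor, was higher by 0.83 with a gap of 0.54.

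Wide gaps were also found outside these groups. Of 5 probes kept for calcium-binding S100 proteins and annexins (16 listed genes), 4 were past 1.2-fold higher. The S100 protein S100a11 had 9.87 and 10.03 on the CRST+RS5 arrays, against 9.09 and 9.28 on the CRST arrays. Annexin A2 (Anxa2) had 10.83 and 11.03 in CRST+RS5, against 10.11 and 10.23 in CRST. Another S100 protein, S100a10, differed by -0.25, below 1.2-fold. Sphk1, which makes sphingosine-1-phosphate, had 9.91 and 11.48 on the CRST+RS5 arrays, against 8.51 and 8.92 on the CRST arrays. Its difference of 1.98 became 1.19 without replicate 2 of CRST+RS5 and 2.76 without its replicate 1, and the smallest of its 4 differences was 0.99. Ranbp3l, a nuclear export factor for Smad proteins, had 10.42 and 10.25 in CRST+RS5, against 9.43 and 9.57 in CRST, and the cyclophilin Ppic had 9.44 and 9.52 in CRST+RS5, against 8.80 and 8.77 in CRST. Ptgis, the prostacyclin synthase, was not detected on any CRST array and was at least 1.40-fold higher. The kinase Lrrk1 had 8.61 and 8.72 on the CRST+RS5 arrays, against nearly equal values of 8.06 and 8.04 on the CRST arrays. Among 12 unnamed probes with all 4 differences past 1.2-fold higher, ILMN_3089584 had the widest gap, with 8.76 and 9.05 on the CRST+RS5 arrays, against 8.09 and 7.99 on the CRST arrays.
Astrocyte genes differed by a median of 0.33 over 9 probes kept (19 listed genes), 8 of them past 1.2-fold higher and 1 lower, all without overlap. Apoe, the main lipid carrier made by astrocytes, had 13.16 and 13.20 on the CRST+RS5 arrays, against 12.85 and 12.86 on the CRST arrays. The cystine transporter Slc7a11 was higher by 0.42. Aldh1l1, a folate enzyme used as an astrocyte marker, differed by -0.29 but was not detected on the CRST+RS5 arrays, which makes its decrease at least 1.04-fold, and the measured difference became -0.19 without CRST+RS5 replicate 2.

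**Figure D3:**
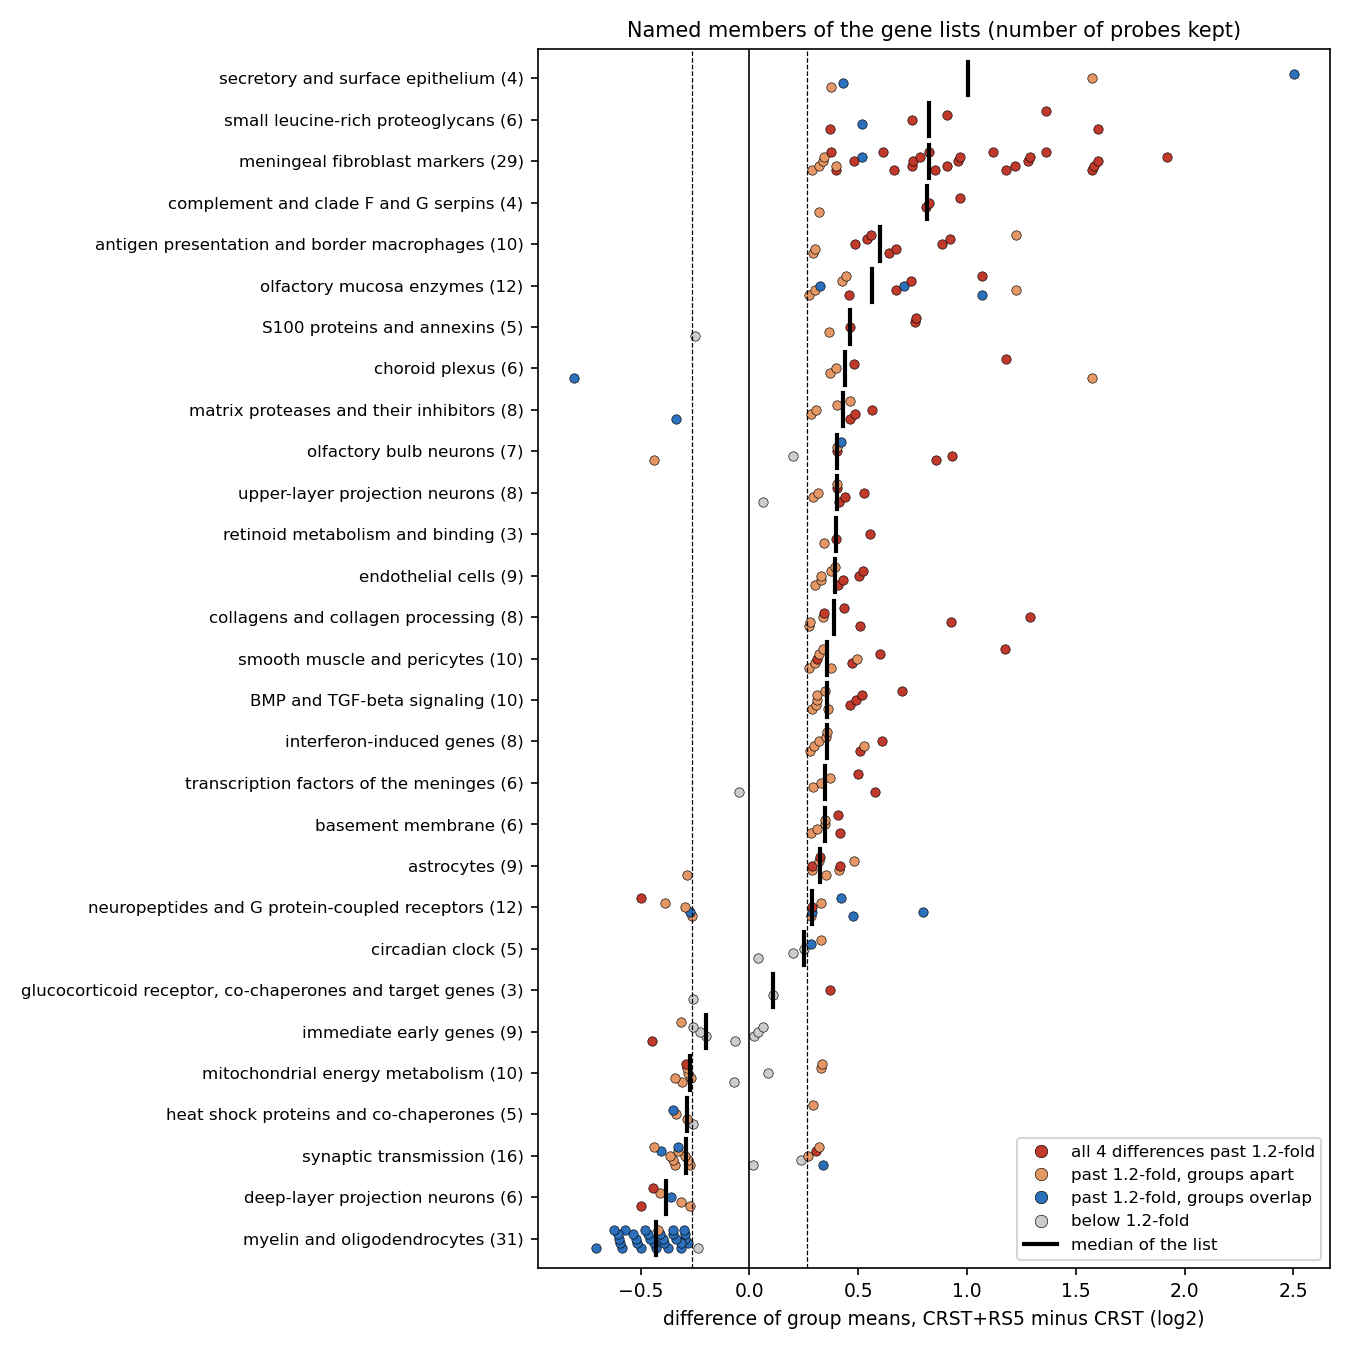
Difference of group means, CRST+RS5 minus CRST (x axis, log2), of each named probe kept, by gene list (rows, with the number of probes), for lists of at least 3 probes. Red, orange, blue and gray mark all 4 differences past 1.2-fold, groups apart, groups overlapping and changes below 1.2-fold, black bars are medians, dashed lines mark 1.2-fold, and 29 of the 31 myelin probes are lower with overlapping groups while 23 of the 29 meningeal probes have all 4 differences past 1.2-fold.

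Among neuronal genes, the named markers of superficial and of deep cortical layers mostly differed in opposite directions. Layer markers outside the study's lists of changed probes have no name, so this does not describe the layers as a whole. Of 8 probes for upper-layer projection neurons kept (17 listed genes), 7 were past 1.2-fold higher without overlap, 4 of them with all 4 differences, with a median of 0.40. Otof, a calcium sensor of exocytosis, had 9.24 and 9.24 on the CRST+RS5 arrays, against 8.66 and 8.77 on the CRST arrays. The transcription factor Cux2 had 11.01 and 11.05 in CRST+RS5, against 10.74 and 10.49 in CRST, and Wfs1, a membrane protein of the endoplasmic reticulum, had 11.33 and 11.39 in CRST+RS5, against 10.92 and 10.92 in CRST. Rgs8, a regulator of G protein signaling, was higher by 0.40, and the 2 probes of Stard8 by 0.31 and 0.40, the smaller becoming 0.18 without CRST replicate 2.
Of 6 probes for deep-layer neurons kept (20 listed genes), 6 were past 1.2-fold lower and 5 did not overlap, with a median of -0.38. Sema3e, a secreted guidance cue, had 8.06 and 8.04 on the CRST+RS5 arrays, against 8.52 and 8.47 on the CRST arrays (difference -0.44, standard error 0.08, adjusted p = 0.143 in limma). Rxfp1, the relaxin receptor, had 7.49 and 7.68 in CRST+RS5, against 8.09 and 8.08 in CRST, and was detected on 1 of the CRST+RS5 arrays. The arrays of CRST agreed closely in these 2 genes. Fezf2, the selector of corticospinal neurons, had 11.67 and 11.85 on the CRST+RS5 arrays, against 12.002 and 12.33 on the CRST arrays, and its difference of -0.41 became -0.24 without CRST replicate 2. The transcription factor genes Etv1 and Tbr1 differed by -0.31 and -0.27, the second with a gap of only -0.02. Tle4, a corepressor of deep-layer neurons, overlapped, at 12.39 and 12.82 on the CRST+RS5 arrays, against 12.70 and 13.23 on the CRST arrays. Without CRST replicate 2, Etv1 became -0.21 and Tbr1 -0.13, and without CRST+RS5 replicate 1 Tbr1 became -0.16 and Tle4 -0.15. The summed signal of the 6 probes was 12921 and 15841 on the CRST+RS5 arrays, against 15938 and 20941 on the CRST arrays. Tbr1, Fezf2 and Cux2, which mark cortical projection neurons, were detected on all 6 arrays.
Calb2, the gene of calretinin in cortical interneurons and in the olfactory bulb, had 11.11 and 11.68 on the CRST+RS5 arrays, against 10.38 and 10.69 on the CRST arrays (difference 0.86, 0.57 without CRST+RS5 replicate 2). Pcdh21, a protocadherin of olfactory bulb output neurons, had 9.04 and 10.03 in CRST+RS5, against 8.53 and 8.68 in CRST, and its difference of 0.93 became 0.43 without CRST+RS5 replicate 2. Of 7 olfactory bulb probes kept (15 listed genes), 5 were past 1.2-fold higher and 1, Slc17a6, was lower. The part of the sampled tissue in the differences of bulb and layer markers was not tested.

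The decreases that held on every array were small on the quantile scale, and they belonged to genes of diverse roles. The 20 named probes with the widest downward gaps differed by -0.29 to -0.50, with gaps of -0.26 to -0.41. Some lay close to the lowest detected signal, which was 7.70 and 7.63 on the CRST+RS5 arrays. With neqc, differences near that signal were larger in both directions, such as -0.96 for Atp12a, -1.19 for Rxfp1 and 2.28 for Col1a1. Atp12a, a proton and potassium pump, had the widest gap, with 7.70 and 7.73 on the CRST+RS5 arrays, against 8.14 and 8.14 on the CRST arrays (difference -0.43, standard error 0.07, adjusted p = 0.143 in limma). Vwc2l, a secreted regulator of BMP signaling, had 9.51 and 9.65 in CRST+RS5, against 9.98 and 10.15 in CRST. Atp6ap2, the accessory subunit of the vacuolar proton pump and prorenin receptor, had 10.65 and 10.64 in CRST+RS5, against 10.96 and 11.13 in CRST. The pump subunit Atp6v1g2 differed by -0.31 with a gap of -0.26. Figf, now Vegfd, a vascular growth factor, had 9.60 and 9.64 on the CRST+RS5 arrays, against 9.95 and 9.98 on the CRST arrays and 9.47 and 9.51 on the CON arrays.
Genes of cell maintenance stood among the rest. Yme1l1, a protease of the inner mitochondrial membrane, had 7.84 and 7.84 on the CRST+RS5 arrays, against 8.26 and 8.16 on the CRST arrays. Gss, the glutathione synthetase, had 7.87 and 7.87 in CRST+RS5, against 8.15 and 8.26 in CRST, and Sephs2, which supplies selenium for selenoproteins, had 8.57 and 8.57 in CRST+RS5, against 8.91 and 8.86 in CRST. Ccng1, a p53-induced cyclin, had 8.70 and 8.62 in CRST+RS5, against 9.07 and 9.06 in CRST, and Xrcc2, a recombination repair protein, differed by -0.32. At the membrane, Efr3a, which anchors a phosphatidylinositol kinase, differed by -0.34, the protocadherin Pcdh17 by -0.32 and the claudin Cldn23 by -0.32.

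**Figure D4:**
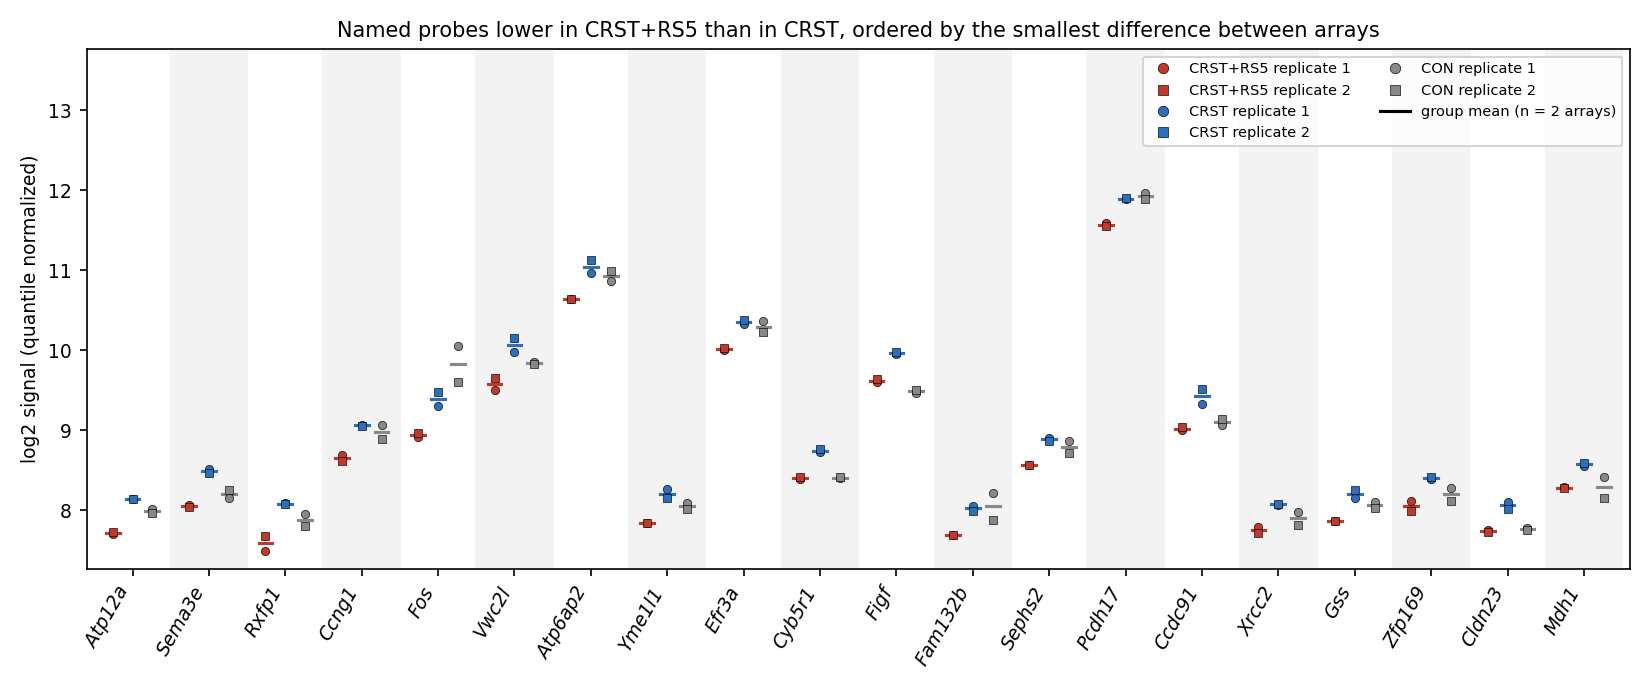
Quantile-normalized log2 signal (y axis) of the 20 named probes with the widest gap in the downward direction (x axis, from the widest). CRST+RS5 is red, CRST blue and CON gray, circles and squares are replicates 1 and 2, horizontal lines are group means (n = 2 arrays), and both CRST+RS5 arrays lie below both CRST arrays by at least 0.26 in each.

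Immediate early genes, which neurons transcribe within minutes of activity, differed mostly by less than 1.2-fold. Of 9 probes kept (27 listed genes), 2 were past 1.2-fold lower, 0 were higher and 7 lay below 1.2-fold, with a median of -0.20. Fos had 8.92 and 8.96 on the CRST+RS5 arrays, against 9.31 and 9.47 on the CRST arrays and 10.06 and 9.60 on the CON arrays (difference -0.45, standard error 0.14, adjusted p = 0.439 in limma). Its relative Fosb had 8.29 and 8.16 in CRST+RS5, against 8.63 and 8.45 in CRST. The synaptic regulator Arc overlapped, at 10.76 and 10.98 on the CRST+RS5 arrays, against 10.91 and 11.28 on the CRST arrays and 12.07 and 11.72 on the CON arrays. For the glucocorticoid receptor, its co-chaperones and target genes, only 3 probes were named and kept (23 listed genes), all of them for target genes. Txnip, a regulator of thioredoxin, was higher, at 9.04 and 9.15 on the CRST+RS5 arrays, against 8.71 and 8.74 on the CRST arrays. Cdkn1a overlapped, and Dusp1 differed by -0.26, below 1.2-fold. The median of these 3 probes was 0.11 and turned to -0.01 under median scaling.
Synaptic genes were lower at 10 and higher at 4 of 16 probes kept (27 listed genes), with a median of -0.29. Slc17a6, the vesicular glutamate transporter of thalamic and bulb neurons, had 10.38 and 10.77 on the CRST+RS5 arrays, against 10.81 and 11.22 on the CRST arrays, a gap of only -0.04. Plcb4, a phospholipase coupled to metabotropic receptors, differed by -0.36, the glutamate transporter Slc1a1 by -0.35, the endophilin Sh3gl2 by -0.33, the receptor Grm8 by -0.29 and the glycine receptor subunit Glrb by -0.27. Without CRST replicate 1, Plcb4 became -0.21 and Glrb -0.17, without CRST replicate 2 Slc17a6 became -0.23, and without CRST+RS5 replicate 1 Slc17a6 became -0.24 and Sh3gl2 -0.21. Hpca, the calcium sensor hippocalcin, was higher and very bright, at 14.31 and 14.32 on the CRST+RS5 arrays, against 13.98 and 14.03 on the CRST arrays. Ppp3ca, the catalytic subunit of calcineurin, was higher by 0.32 and the G protein Gnao1 by 0.27, both without overlap.
For mitochondrial energy metabolism, 6 of 10 probes kept (23 listed genes) were lower and 2 were higher past 1.2-fold, all 8 without overlap. Mdh1, the cytosolic malate dehydrogenase of the malate-aspartate shuttle, had 8.29 and 8.28 on the CRST+RS5 arrays, against 8.56 and 8.59 on the CRST arrays. The shuttle carrier Slc25a11 differed by -0.28 with a gap of -0.06, Surf1, an assembly factor of cytochrome oxidase, by -0.31, the pyruvate dehydrogenase subunit Pdhb by -0.34 and the isocitrate dehydrogenase subunit Idh3g by -0.27. Without CRST+RS5 replicate 2, Slc25a11 became -0.12 and Pdhb -0.19. Romo1, a mitochondrial membrane protein, and the citrate carrier Slc25a1 were each higher by 0.33, Romo1 by 0.18 without CRST+RS5 replicate 1. Of 5 chaperone probes kept (17 listed genes), 1 was higher and 3 were lower, with the Hsp70 partner Dnaja1 at 7.74 and 7.79 on the CRST+RS5 arrays, against 8.05 and 8.16 on the CRST arrays, and the co-chaperone Bag3 at 10.08 and 10.07 in CRST+RS5, against 9.74 and 9.83 in CRST.

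Not every large change of a group mean held on both arrays. Of the probes past 1.2-fold, 30 higher and 56 lower ones overlapped, and with any 1 of the 4 arrays left out 140 of the 344 named higher probes and 34 of the 211 named lower probes stayed past 1.2-fold.
Myelin genes were the plainest case. Of 31 probes kept (37 listed genes), 30 were past 1.2-fold lower, with a median of -0.43, but 29 of these overlapped. Tmem125 alone did not, and its difference of -0.42 became -0.14 without CRST replicate 2. CRST replicate 2 was the highest of the 6 arrays for all 31. Mbp, which encodes myelin basic protein, had 14.04 and 14.31 on the CRST+RS5 arrays, against 13.97 and 15.24 on the CRST arrays and 14.19 and 14.31 on the CON arrays. Anln, the largest of these decreases at -0.70, had 8.76 and 9.29 on the CRST+RS5 arrays, against 9.04 and 10.42 on the CRST arrays. The median of the list was -1.09 and -0.93 against CRST replicate 2, for CRST+RS5 replicates 1 and 2, and -0.04 and 0.17 against CRST replicate 1. Without CRST replicate 2 it was 0.04 in place of -0.43. Both probes of Mog and both of Mobp overlapped in this way. The summed signal of the list was 88536 and 101460 on the CRST+RS5 arrays, against 86305 and 185919 on the CRST arrays, and its part in the decreases of other genes was not tested. The largest decrease of a mean, Ttr, the thyroid hormone carrier of the choroid plexus, rested on the same array, with 9.33 and 9.30 on the CRST+RS5 arrays, against 9.08 and 11.16 on the CRST arrays. The other 5 of 6 choroid plexus probes kept (18 listed genes) were past 1.2-fold higher without overlap, and the median of the 6 was 0.44. Among these 5 were Igf2 and both probes of Igfbp2, which are also meningeal, and Wfdc2, which is also epithelial.
In the upward direction, most of the largest single-array changes came from CRST+RS5 replicate 2. Bpifb4, a secreted lipid-binding protein of airway and nasal epithelium, had the largest mean difference of all, 2.50, from 7.81 and 12.83 on the CRST+RS5 arrays, against 7.89 and 7.75 on the CRST arrays. Wfdc2, another secreted epithelial protein, had 7.99 and 10.61 in CRST+RS5, against 7.79 and 7.66 in CRST, and Cbr2 had 7.85 and 10.10 in CRST+RS5, against 7.78 and 7.72 in CRST. Their groups did not overlap, yet the gaps were only 0.20 and 0.07, and without CRST+RS5 replicate 2 the difference of Wfdc2 became 0.26 in place of 1.57. Of the 12 olfactory mucosa probes kept, 12 were higher, 3 overlapped and 11 were highest on that array. Within that list Gstm2, a glutathione transferase, was higher on both arrays, at 9.61 and 10.19 in CRST+RS5, against 8.75 and 8.92 in CRST, as were Fmo1, a flavin monooxygenase, by 0.74 and the aldehyde oxidase Aox3 by 0.67. Both probes of Cartpt, a neuropeptide precursor, were high on CRST+RS5 replicate 2 only, at 8.91 and 11.08 for 1 and 8.30 and 10.26 for the other, against 8.77 to 9.38 on the CRST arrays. C1ql2, a synaptic organizer, was instead high on CRST+RS5 replicate 1, with 10.59 and 9.29 on the CRST+RS5 arrays, against 9.19 and 9.39 on the CRST arrays. Hemoglobin (Hba-a1), a marker of blood, overlapped, with 13.27 and 14.03 in CRST+RS5, against 13.32 and 13.20 in CRST. The signal of all 4 kept probes of secretory and surface epithelium summed to 938 and 9535 on the CRST+RS5 arrays, against 898 and 818 on the CRST arrays, and the part of such tissue in other increases on replicate 2 was not tested. Of the 29 meningeal probes, 15 were highest on CRST+RS5 replicate 1 and 13 on replicate 2.

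**Figure D5:**
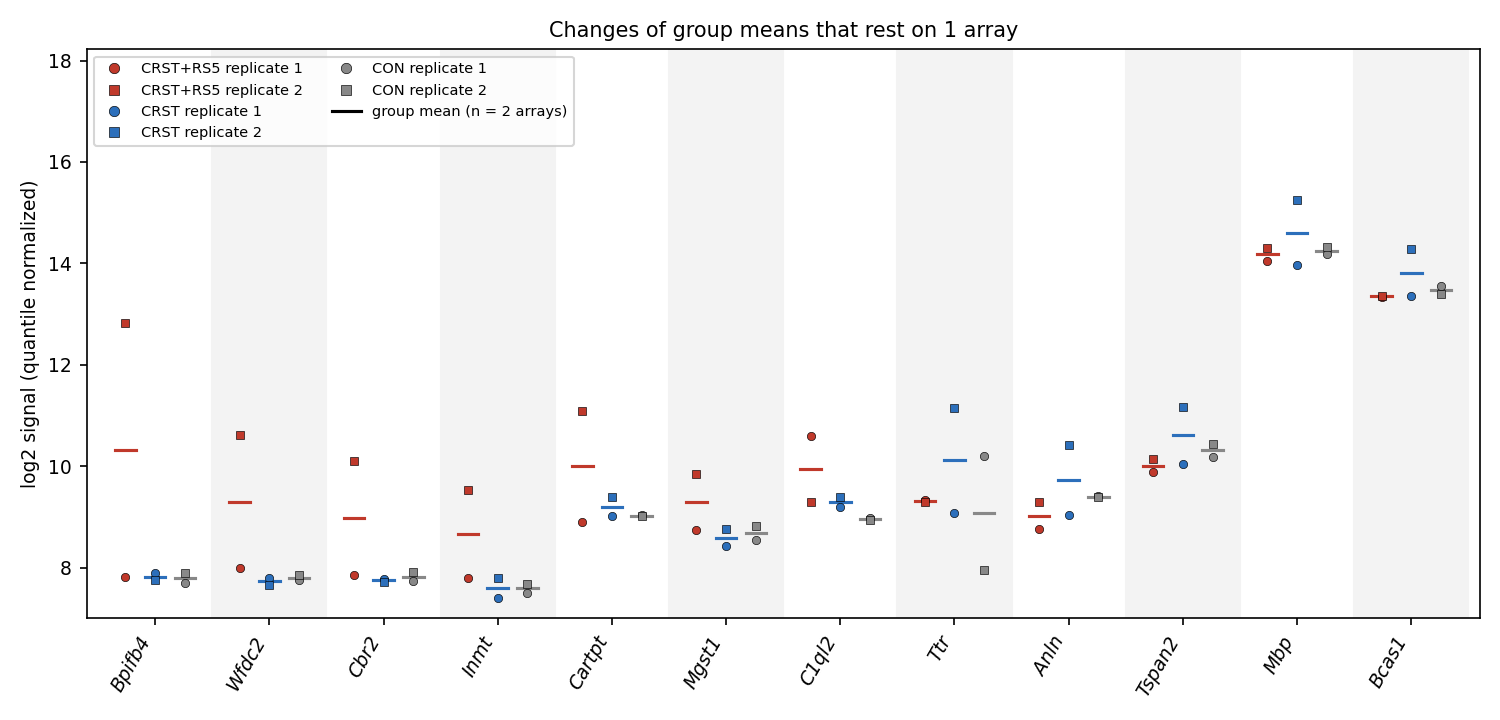
Quantile-normalized log2 signal (y axis) of 12 named probes whose change of group mean rests on 1 array (x axis). CRST+RS5 is red, CRST blue and CON gray, circles and squares are replicates 1 and 2 and horizontal lines are group means (n = 2 arrays), with CRST+RS5 replicate 2 apart for Bpifb4 to Mgst1, CRST+RS5 replicate 1 for C1ql2 and CRST replicate 2 for Ttr to Bcas1.

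Among genes with several named probes, most had like directions. Of 12 named genes with 2 probes kept, 11 had both probes in the same direction, and 6 had both in the same class of overlap. A second probe outside the study's lists of changed probes has no name and could not enter this count. The count is therefore a description and no check of one probe by another. The exception in direction was Neto1, with -0.33 and 0.02. At the 1.2-fold limit the classes change by very little, with Lass4 just inside at 0.27 and Cdc34 just outside at 0.26 among the higher probes, and Slc6a15 inside and BC030500 outside, both at -0.26, among the lower ones.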

How the data were processed

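RNA of the PL was hybridized to mouse Ref-8 v2 bead arrays (Illumina), 2 per group, each a pool of 6 to 7 mice. The deposited table gives an average bead intensity and a detection p-value per probe and array, which the authors extracted with GenomeStudio. Whether background was subtracted is not given in the sources used here. The authors also deposited quantile-normalized log2 values of the same arrays, which were used as an alternative. Intensities were log2 transformed and quantile normalized over all 6 arrays. A probe was kept where both arrays of CRST+RS5, or both of CRST, had a detection p below 0.05, and the 1.2-fold criterion of the study's methods was applied to group means. Between 12645 and 13407 probes were detected per array, and the small number of arrays limits the precision. Per the methods, 2 independent sets of the 3 groups were prepared, and the sources used here do not say which arrays share a set. The deposited array labels carry a number that recurs in each group, which the replicate numbers follow, but nothing says that it marks a set. P-values measure only the spread between these arrays.

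Names came from the study's lists of changed probes, 899 probes in all, of which 851 matched a current RefSeq symbol. Columns in those lists with the study's own fold changes were not used. Differences were tested with limma 3.58.1 in R 4.3.3 (lmFit and eBayes over 6 arrays, Benjamini-Hochberg adjustment over 12881 probes, 2 of them with no variance). The scripts were tested on simulated data. Genes were named by rule: the 20 higher and 20 lower probes with the widest gap, the 10 largest differences in each direction whose groups overlap, and members of 33 gene lists. Ptgis, Lrrk1, Atp6v1g2, the genes at the fold limit and 1 unnamed probe were named after their values were seen. The members and lists were chosen with earlier results of these data known. A probe not detected on either array of one group is given as a bound, the mean of the other group against, per array, the higher of the probe's signal and the lowest detected signal. Col1a1, Fmod, Pcolce, Tnc, Myh11, Msx1 and F13a1 were among further genes not detected on all 4 compared arrays. Their differences are given as measured. Alternatives were median scaling, the neqc method, an offset of 50 before the log, the deposited values, normalization over 4 arrays, other detection filters, a trend in the variance, the replicate number as a block, and each array left out. Some items are not reported here.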

Additional observations from a re-analysis of the deposited data

Results flagged for a closer look

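A signal appeared in probes that the detection rule leaves out. On CRST+RS5 replicate 2, 16 such probes had a signal at least 4-fold above that on every other array, including both CON arrays, and 12 of them carry a name. No probe of this kind was found on any of the other 5 arrays. Vmo1, a secreted protein of the vitelline membrane outer layer family, had 7.46 and 13.38 on the CRST+RS5 arrays, against 7.71 and 7.50 on the CRST arrays and 7.44 and 7.89 on the CON arrays. The cytochrome P450 gene Cyp2a5 had 7.31 and 12.41 in CRST+RS5, against 7.42 and 7.53 in CRST, and Cyp2f2 had 7.43 and 10.66 in CRST+RS5, against 7.23 and 7.33 in CRST. Both encode enzymes known from the olfactory mucosa. A further 4 probes with such a signal passed the rule, Bpifb4 among them. The part of this array in other increases was not tested beyond leaving it out.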

How the results depend on the processing

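Counts at the fold criterion depended on the scaling. Probes past 1.2-fold numbered 604, against 1424 under median scaling (208 higher and 1216 lower) and 1981 with neqc (945 and 1036). Those without overlap numbered 518, against 1289 and 1592, and those with all 4 differences past 1.2-fold 148, against 507 with neqc. Of these 148, 93 remained under median scaling and 148 with neqc. The offset of 50, the deposited values, 4-array normalization, other detection filters and the variance trend gave 444 to 799 probes past 1.2-fold. With the replicate number as a block, limma called 35 probes at an adjusted p of 0.05, all 35 of them higher and past 1.2-fold. The methods name 2 independent sets of the 3 groups without saying that a number marks this pairing, and deviations of same-numbered arrays correlated at 0.263 (CRST+RS5 and CRST), 0.0505 (CRST+RS5 and CON) and 0.249 (CRST and CON). With 1 array left out, the lone array of its group being assumed to vary like the others, 848 to 1210 probes were past 1.2-fold and limma called 0 to 31. List medians turned sign for the glucocorticoid targets (-0.014 under median scaling, -0.053 to 0.30 with 1 array left out), myelin (-1.04 to 0.041) and neuropeptides (-0.23 to 0.24). Under median scaling, Cdkn1a (-0.014) and Neto1 (-0.092) turned negative. With 1 array left out, differences spanned 0 for Adamts4 (-0.70 to 0.025), Bpifb4 (-0.0084 to 5.01), C1ql2 (-0.0011 to 1.30), Cartpt (-0.29 to 1.88), Cartpt (-0.51 to 1.46), Cdkn1a (-0.074 to 0.30), Mbp (-1.06 to 0.20), Mobp (-1.35 to 0.31), Mobp (-1.19 to 0.22), Mog (-1.17 to 0.10), Mog (-1.30 to 0.13), Neto1 (-0.22 to 0.25), Per2 (-0.088 to 0.49) and Ttr (-1.84 to 0.23). The cause was not tested. Of the kept probes of genes named in the text, no others changed sign under these alternatives.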

Other observations

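Of 12 probes for neuropeptides and G protein-coupled receptors kept (23 listed genes), 7 were higher and 5 lower past 1.2-fold, and 5 overlapped. Of 5 circadian clock probes kept (17 listed genes), 2 were past 1.2-fold higher, and CRST+RS5 replicate 2 was the highest array for all 5. Among them were both probes of Per2, a core clock repressor, with differences of 0.20 and 0.28, the smaller becoming -0.088 without that array.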
